A study of Mus musculus with 17 samples.

Results

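The response of lean mouse liver to a single ethanol binge was read from 8 of the 17 arrays of the study: 4 mice fed chow and given maltose (chow) and 4 mice fed chow and given ethanol (1B). The arrays were chosen by their labels alone, with no use of measured values. Each array held RNA from the liver of 1 male mouse that had eaten chow for 3 months. The ethanol dose was 5 g/kg by gavage, the controls received isocaloric dextrin-maltose by gavage, and the study's methods, which describe the procedure for mice on a high-fat diet (HFD), give 9 hours from gavage to tissue collection. The difference between the groups is thus that between ethanol and a carbohydrate of equal energy, and no mouse without gavage was measured. The labels name the strain C57BL/6N and the methods name C57BL/6J mice. Age and the clock time of gavage were not given in the sources used here. The other 9 mice, 4 with maltose (HFD) and 5 with ethanol (HFD+1B), all on HFD, entered the estimate of the spread and served for a comparison of the ethanol effect between diets.

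Hepatocytes oxidize ethanol to acetaldehyde with alcohol dehydrogenases and the cytochrome P450 Cyp2e1, and acetaldehyde to acetate with aldehyde dehydrogenases, which shifts the balance of NAD+ and NADH in the cell. The same cells carry most of the liver's metabolic programs. PPAR-alpha is the nuclear receptor that turns on fatty acid oxidation in fasting, SREBP-1c and ChREBP turn on glycolysis and lipogenesis after carbohydrate intake, SREBP-2 turns on cholesterol synthesis and uptake, and the unfolded protein response raises chaperones when folding in the endoplasmic reticulum (ER) is disturbed. Hepatocytes also secrete the acute phase proteins, mainly in response to interleukin (IL)-6 and IL-1 from macrophages, and neutrophils follow chemokines such as Cxcl1 into injured liver.

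On each array, liver cDNA carried Cy5 and a reference RNA common to all arrays carried Cy3, so a value below is the log2 ratio of liver to reference of 1 probe in 1 mouse, and a log2 difference is the 1B mean minus the chow mean. Chow mice 1 to 3 shared slides with 1B mice 1 to 3 in that order, and chow mouse 4 and 1B mouse 4 lay on the other 2 of the 5 slides. The median raw Cy5 signal was 99 to 138 intensity units in chow and 69 to 134 in 1B, and 77.4% to 79.3% and 75.1% to 80.9% of probes were well above background. Since a fixed offset was added to each signal, ratios of dim probes are compressed. Probes for ribosomal RNA, 5 in number, had a mean log2 ratio of 0.22 to 0.59 in the chow mice and of -1.16, -0.11, 0.12, and -0.31 in 1B mice 1 to 4, without overlap. The part of this difference in the results below was examined only by entering it as a covariate. Since the groups did not overlap in it, counts with that covariate cannot separate the signal from the group. The 8 samples are separate mice, so p values below measure the spread between mice. In whole liver RNA, fewer cells of a type and less RNA per cell cannot be told apart.

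The 2 groups separated mouse by mouse. In a principal component analysis of the 8 arrays over 33326 probes, the first component held 37.3% of the variance and placed the chow mice at -17.9, -16.3, -29.1, and -27 and the 1B mice at 39.3, 24.8, 10, and 16.1. The second component, with 20.2%, ran within both groups: it was 26.9, 8.6, -9.7, and -3.9 in chow mice 1 to 4 and 16.8, 9.8, -18.4, and -30.2 in 1B mice 1 to 4, so that mice 1 and 2 were high and mice 3 and 4 low in each group. To place each mouse on probes it did not help to choose, probes with at least a 2-fold change were called in a fit without that mouse (219 to 279 probes), and its median position on the line from the chow mean (0) to the 1B mean (1) was taken. The chow mice lay at 0.07, 0.19, 0.01, and -0.02 and the 1B mice at 0.99, 0.91, 0.86, and 0.98. Chow mouse 2 was nearest to the other group among controls, and 1B mouse 3 among treated mice. In 1B mouse 4 the probes that rose went further than those that fell (1.12 and 0.87), and in 1B mouse 1 the falls went further (0.91 and 1.13). Correlations of the tested probes between mice were 0.72 to 0.87 within chow, 0.61 to 0.78 within 1B, and 0.44 to 0.72 between the groups, so the range within 1B lay lower than that within chow and overlapped it.

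**Figure D1:**
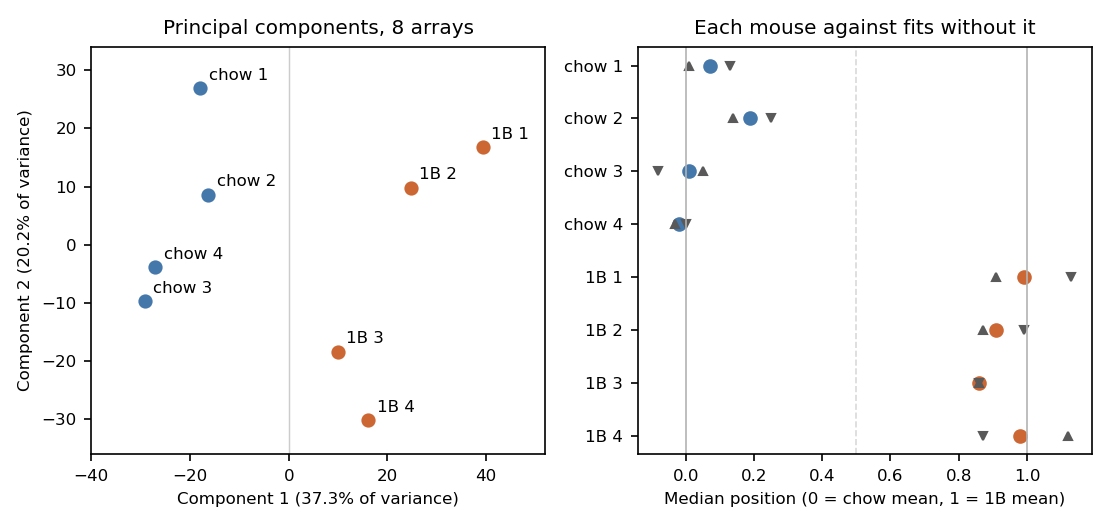
Left, the first and second principal components of the 8 arrays, with 37.3% and 20.2% of the variance; all chow mice lie left of 0 and all 1B mice right of it, and mice 1 and 2 lie above mice 3 and 4 in each group. Right, the median position of each mouse between the chow mean (0) and the 1B mean (1) on probes called without it, from -0.02 to 0.19 in chow and 0.86 to 0.99 in 1B; upward triangles are rising probes alone and downward triangles falling probes alone.

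Ethanol raised and lowered similar numbers of genes. Among 34650 probes tested, which stand for 19363 genes, 405 genes were higher (2.09%) and 396 lower (2.05%) in 1B than in chow when called at an adjusted p up to 0.05, 4.14% in either direction, with the probe brightest in Cy5 standing for each gene. With a change of at least 2-fold, 110 genes were higher (0.568%) and 75 lower (0.387%), and over 4-fold there were 21 and 9. In probes, 638 were higher (1.84%) and 618 lower (1.78%), 3.62% in either direction, and the counts at least 2-fold were 171 higher (0.494%) and 100 lower (0.289%). The median log2 difference over all genes was 0.008, and its median size 0.116, so most genes differed little. Of the 170 genes changed at least 2-fold with all 8 values, 164 had no overlap between the groups, against 11.3% of all genes, and the 6 that overlapped were Saa1, Saa3, Mt2, Me1, Ppara, and Tsc22d1. Of the 78 such genes with over 1 probe tested, 45 were called in the same direction on every probe and 0 were called in the other direction. Both shares describe genes that this contrast chose. Within slides that held 1 mouse of each group, the differences of the genes changed at least 2-fold had a median of 1.05, 0.87, and 0.96 times the pooled difference on slides 1, 2, and 3, and all 174 genes measured on the 3 slides kept their direction. The arrays on these slides also chose the genes, so this agreement was largely fixed in advance and is not separate evidence.

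**Figure D2:**
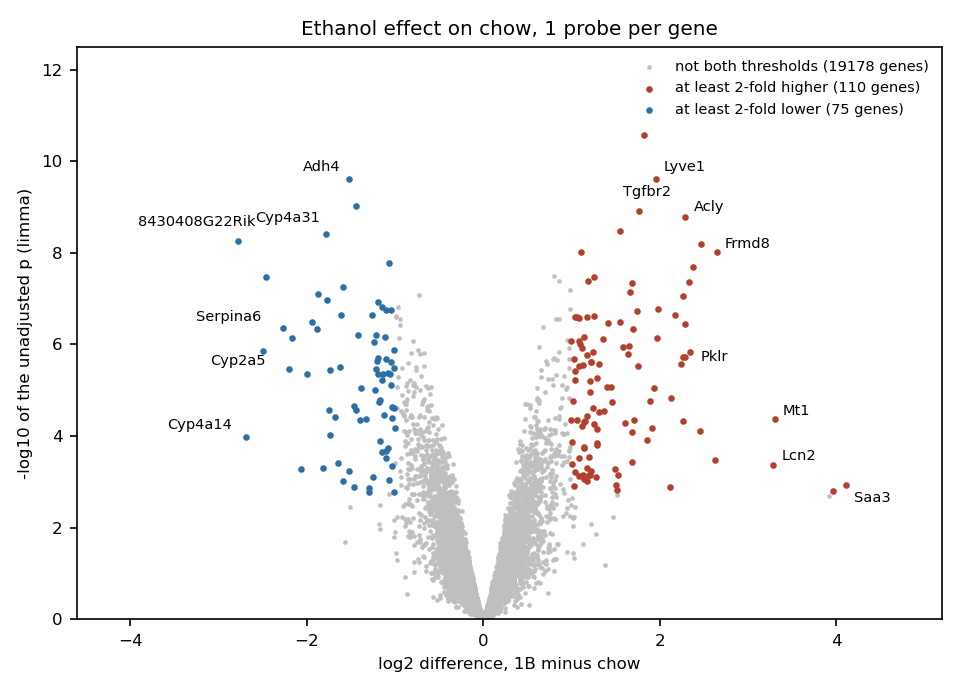
Log2 difference of 1B minus chow (x axis) against -log10 of the unadjusted p (y axis), 1 point per gene; red and blue points are the 110 genes higher and the 75 genes lower by at least 2-fold that passed, at an adjusted p up to 0.05. Saa3, at 4.11, lies furthest right but low on the y axis, whereas Adh4 and Lyve1, with smaller differences of -1.52 and 1.96 and an SE of 0.12 and 0.15, lie near the top.

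The largest rises were those of acute phase proteins and metallothioneins, and they were uneven between the 1B mice. Saa3, a serum amyloid A apolipoprotein of the acute phase, had log2 ratios of -3.63, -2.91, -5.15, and -5.05 in chow mice 1 to 4 and of 1.97, 0.82, -3.78, and 0.68 in 1B mice 1 to 4. The 1B mouse 3 lay below 2 of the chow mice, while the other three 1B mice were above every control. The fitted rise was 17.2-fold, with a log2 difference of 4.11 (SE 1.07, adjusted p = 0.0372). Saa1 also had 1B mouse 3 far below the other 1B mice (-2.86, -2.53, -4.35, and -4.24 in chow and 2.57, 1.19, -3.22, and 1.33 in 1B), with a difference of 3.96 (SE 1.06, adjusted p = 0.0458). Lcn2, which encodes the siderophore-binding protein lipocalin-2, was -4.3, -4.68, -5.93, and -5.89 in chow and -0.53, -1.53, -3.94, and -1.64 in 1B. The groups did not overlap, 1B mouse 3 was again the lowest of the treated mice, and the difference was 3.29 (SE 0.76, adjusted p = 0.0191). Serpina3n, a protease inhibitor induced in the acute phase, rose 5.49-fold (log2 difference 2.46, SE 0.48, adjusted p = 0.0065), from -3.05 to -2.22 in chow to -1.38 to 0.67 in 1B.

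Of 33 acute phase genes tested, 9 rose, 0 fell, and 24 did not pass, with a median log2 difference of 0.71 beside 0.008 over all genes. For this and each list below, the share of all genes is 2.09% higher and 2.05% lower. Besides those named, Lrg1 (1.68), the fibrinogen chains Fga (1.52) and Fgg (1.51), Serpina3m (1.14), and Lbp, the lipopolysaccharide-binding protein (0.82), rose. Saa2 had a difference of 3.92 with an adjusted p of 0.0541, haptoglobin (Hp) of 1.01 (adjusted p = 0.141), Orm1 of 0.71 (adjusted p = 0.404), and hepcidin (Hamp) of -1.57 (adjusted p = 0.222), and none of these passed. The mean of the list over the chow mean was 0.29, 0.32, -0.36, and -0.22 in chow mice 1 to 4 and 1.53, 1.06, 0.16, and 1.07 in 1B mice 1 to 4, so 1B mouse 3 lay within the range of the controls. Within slides 1, 2, and 3 the list mean differed by 1.24, 0.74, and 0.52. The count rested on single arrays: 1 gene passed without chow mouse 3 (Serpina3n), and also 1 without chow mouse 4, 1B mouse 1, or 1B mouse 4, 2 without 1B mouse 2, and 5 without chow mouse 1, and the highest count with 1 chow or 1B mouse left out was 12. Serpina3n was also the 1 gene that passed with ribosomal RNA entered as a covariate, and without both chow mouse 1 and 1B mouse 4, the pair of arrays with the most outlier spots and the dimmest Cy5 signal.

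Metallothioneins, cysteine-rich proteins that bind zinc and are raised by zinc, glucocorticoids, and IL-6, were also lowest among treated mice in 1B mouse 3. Mt1 was -2.22, -2.76, -3.53, and -3.51 in chow and 1.07, 0.32, -1.31, and 1.1 in 1B. The groups did not overlap and the rise was 9.87-fold (log2 difference 3.30, SE 0.61, adjusted p = 0.00422), although a second, dimmer Mt1 probe had a difference of 0.02. Mt2 rose 6.2-fold (log2 difference 2.63, SE 0.59, adjusted p = 0.0166), with 1B mouse 3 at -2.58, below chow mouse 1 at -2.41. Slc30a10, a metal exporter of hepatocytes, rose evenly, from -1.64 to -0.65 in chow to 0.38 to 0.79 in 1B (log2 difference 1.74, SE 0.21, adjusted p = 0.000119), and the other 8 of 11 genes of the list did not pass. Among 20 glucocorticoid-responsive genes, 4 rose and 0 fell: Mt2, G6pc, the drug-metabolizing P450 Cyp2b10 (log2 difference 1.75), and Fkbp5, a co-chaperone of the glucocorticoid receptor (log2 difference 1.1, adjusted p = 0.000334, on 3 of 3 probes). Without chow mouse 3, without both chow mouse 1 and 1B mouse 4, or with the ribosomal RNA covariate, 2 passed (Cyp2b10 and Fkbp5), as many as without 1B mouse 1 or 1B mouse 4. Of the 20 differences in this list, 10 were positive and 10 negative. At an unadjusted limma p of 0.05, 6 of its genes were higher and 1, Tsc22d3, was lower. Mt2, G6pc, and Cyp2b10 are also counted in other lists here. The median of the glucocorticoid list was 0.05, and -0.21 without 1B mouse 4, whose list mean of 1.06 stood above 0.17 to 0.3 in the other 1B mice.

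Genes that signal to the acute phase changed less. Stat3, the transcription factor below the IL-6 receptor, was -0.91, -1.09, -1.05, and -1.17 in chow and -0.15, -0.37, -0.5, and -0.1 in 1B, a rise of 1.71-fold without overlap (adjusted p = 0.00705) on 1 of 2 probes. Bcl3, a nuclear partner of NF-kappaB, rose 2.59-fold (adjusted p = 0.00313) and Nfkb1 1.31-fold (adjusted p = 0.0419, on 1 of 3 probes), whereas the kinase gene Pim3 fell 1.91-fold (adjusted p = 0.0283). These 4 were the only genes that passed among 37 genes of IL-1, IL-6, STAT3, and NF-kappaB signaling, and the list median was 0.03. With any single chow or 1B mouse left out, 2 genes rose (Stat3 and Bcl3, not Nfkb1) and 0 to 2 fell. Of 30 immediate early genes, Klf10 (log2 difference 2.29), Egr1 (1.71), and Maff (0.82) rose and Cyr61 (-0.81) fell.

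Enzymes of carbohydrate use and lipogenesis rose together, for the most part without overlap between the groups. Fasn, fatty acid synthase, was -2.08, -1.55, -1.38, and -2.44 in chow and 0.58, 0.18, -0.08, and 1.03 in 1B, a rise of 4.89-fold (SE of the log2 difference 0.29, adjusted p = 0.000164). Every 1B mouse was above every control, 1B mouse 3 being the lowest. Acly, ATP citrate lyase, which supplies acetyl-CoA for lipogenesis, rose 4.89-fold from -1.89 to -1.41 in chow to 0.36 to 0.85 in 3 measured 1B mice (adjusted p = 7.03e-06), while a dimmer probe had a difference of 0.48 (adjusted p = 0.197). Elovl6, the elongase of saturated fatty acids, rose 5.19-fold (log2 difference 2.38, SE 0.24, adjusted p = 3.59e-05), also with 3 measured 1B mice. Pgd, an enzyme of the pentose phosphate pathway that makes NADPH, rose 5.04-fold (adjusted p = 4.95e-05, on both probes). The lowest p of all genes belonged to Pdhb, a subunit of pyruvate dehydrogenase, which was singled out after its values were seen: it rose 3.53-fold (log2 difference 1.82, SE 0.12, adjusted p = 8.96e-07).

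Pklr, the liver pyruvate kinase and a known target of ChREBP, was -2.05, -1.94, -1.02, and -1.4 in chow and 0.41, 0.65, 0.99, and 0.91 in 1B. Chow mice 1 and 2 were lower than chow mice 3 and 4, no 1B mouse reached any of them, and the rise was 5.07-fold (log2 difference 2.34, SE 0.33, adjusted p = 0.000412). Its promoter is shown because it was the only one among the 84 rising genes changed at least 2-fold with a promoter in the RefSeq table that held a match to the carbohydrate response element searched, CACGNG and CNCGTG with 5 bases between them. Motifs were searched on both strands over 250 bases before the start of transcription. The 200 bases before the start, chr3:89136423-89136622 of GRCm38.p6, plus strand, with the match in capitals, 170 bases before the start, read 5′ to 3′:
Pklr: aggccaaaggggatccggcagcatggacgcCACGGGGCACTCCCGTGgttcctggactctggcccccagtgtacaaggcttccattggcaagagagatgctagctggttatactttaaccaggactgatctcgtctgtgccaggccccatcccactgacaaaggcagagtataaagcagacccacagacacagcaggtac
The element was found in 13 of 32851 windows of the table (0.0396%), in 6 of 14581 tested genes (0.0411%), and in 0 of 55 falling genes, and a match is a description of letters, not a measured site.

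Of 22 lipogenic genes tested, 8 rose (7 at least 2-fold), 1 fell, and 13 did not pass, with a median log2 difference of 0.65. The others that rose were Thrsp, a lipogenic protein of the liver (2.18), Acacb, acetyl-CoA carboxylase 2 (1.5, on 1 of 2 probes), Me1, malic enzyme (1.18), and Mlxipl, the gene of ChREBP (0.86, adjusted p = 0.000138). Fads2, a desaturase of polyunsaturated fatty acids, fell (-0.87). Srebf1 had a difference of -0.13 (adjusted p = 0.946), and Scd1 of 1.03 (adjusted p = 0.345), and these did not pass. Acaca, acetyl-CoA carboxylase 1, is counted as not passed by its brightest probe (0.52, adjusted p = 0.158), but its other 4 probes rose by 1.12 to 2.01. The list mean was -0.3, -0.16, 0.39, and 0.05 in chow mice 1 to 4 and 0.59, 0.66, 0.83, and 1.03 in 1B mice 1 to 4, without overlap. With 1 chow or 1B mouse left out, 6 to 10 of its genes rose.

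Among 20 genes of glycolysis and gluconeogenesis, 10 rose and 1 fell, with a median of 0.62. G6pc, glucose 6-phosphatase, was -1.72, -1.73, -0.56, and -0.26 in chow and 0.56, 0.53, 1.62, and 1.48 in 1B, with the lower pair of each group being mice 1 and 2 (log2 difference 2.11, SE 0.55, adjusted p = 0.0398). Khk, ketohexokinase, the first enzyme of fructose use, rose 2.92-fold (log2 difference 1.55, SE 0.14, adjusted p = 1.03e-05). Ldha (0.95), Slc37a4 (0.92), Gapdh (0.81), Eno1 (0.78), Pygl (0.71), and Fbp1 (0.61) rose by less than 2-fold. With 1 chow or 1B mouse left out, 7 to 9 genes of the list rose.

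**Figure D3:**
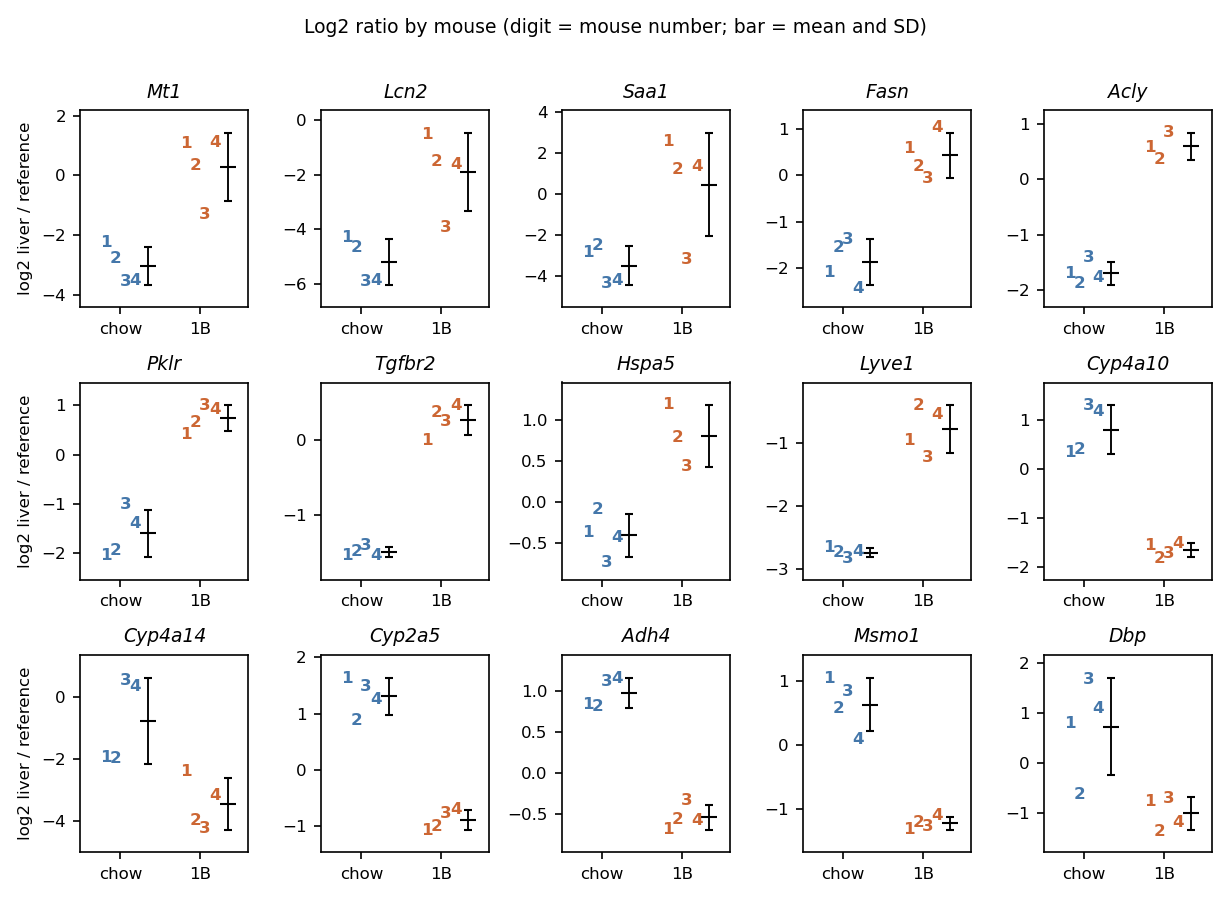
Log2 ratio of liver to reference in each of the 4 chow and 4 1B mice for 15 genes, each digit marking the mouse of that number and each bar the mean and SD of the group, with a y axis of its own in each panel. Tgfbr2, Adh4, and Lyve1 have narrow groups far apart; Mt1, Lcn2, and Saa1 have one 1B mouse well below the others; Cyp4a14 has chow mice 1 and 2 at -1.96 and -1.98 and chow mice 3 and 4 at 0.52 and 0.32.

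ER chaperones and genes of the unfolded protein response were higher in 1B. Of 27 genes tested, 25 had a positive difference, 6 passed, 0 fell, and the median was 0.53. Hspa5, the main chaperone of the ER lumen (BiP), was -0.38, -0.09, -0.74, and -0.44 in chow and 1.19, 0.79, and 0.43 in 1B mice 1 to 3, a rise of 2.32-fold (log2 difference 1.22, SE 0.29, adjusted p = 0.0272). Creld2, a small ER protein induced by ER stress, was -0.41, -1.12, and -0.94 in chow mice 2 to 4 and 1.57, 0.83, 0.5, and 0.56 in 1B, a rise of 3.23-fold (adjusted p = 0.0066). Syvn1, the ubiquitin ligase of ER-associated degradation, rose 2.36-fold (log2 difference 1.24, SE 0.22, adjusted p = 0.00277), from -0.73 to -0.16 in chow to 0.33 to 1.25 in 1B, on 1 of 2 probes. In all 3, 1B mouse 1 was the highest and no treated mouse fell among the controls. Dnajb11 (0.76), Derl1 (0.70), and Ern1, which encodes the ER stress sensor IRE1-alpha (0.54), rose by less than 2-fold. Hsp90b1 (0.57, adjusted p = 0.117, with a dimmer probe that rose by 0.64), Calr (0.53, adjusted p = 0.0773), and Xbp1 (0.59, adjusted p = 0.406) did not pass. The list mean was 0.09, 0.22, -0.21, and -0.08 in chow mice 1 to 4 and 0.88, 0.6, 0.36, and 0.34 in 1B mice 1 to 4. Within slides it differed by 0.79, 0.38, and 0.57. Without chow mouse 3, 3 genes passed (Creld2, Derl1, and Syvn1), as many as without 1B mouse 1, and without other single chow or 1B mice up to 7. With the ribosomal RNA covariate, 4 passed (Creld2, Derl1, Ern1, and Syvn1).

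The promoters of the 3 genes that rose at least 2-fold are shown because each held the ER stress response element, CCAAT and CCACG with 9 bases between them, which the transcription factors ATF6 and NF-Y are known to bind. Each stretch is the 200 bases before the RefSeq start on the plus strand of GRCm38.p6, read 5′ to 3′, with the match in capitals: chr2:34771890-34772089 for Hspa5 (65 bases before the start), chr15:88819446-88819645 for Creld2 (126 bases, on the opposite strand), and chr19:6046376-6046575 for Syvn1 (44 bases).
Hspa5: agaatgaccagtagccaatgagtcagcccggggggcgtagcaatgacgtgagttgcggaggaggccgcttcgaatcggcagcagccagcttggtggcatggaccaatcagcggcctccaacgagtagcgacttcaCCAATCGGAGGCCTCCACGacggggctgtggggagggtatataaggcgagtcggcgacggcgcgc
Creld2: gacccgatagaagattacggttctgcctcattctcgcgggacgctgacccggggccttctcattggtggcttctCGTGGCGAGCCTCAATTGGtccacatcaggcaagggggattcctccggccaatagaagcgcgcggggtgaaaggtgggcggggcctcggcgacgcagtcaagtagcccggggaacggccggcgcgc
Syvn1: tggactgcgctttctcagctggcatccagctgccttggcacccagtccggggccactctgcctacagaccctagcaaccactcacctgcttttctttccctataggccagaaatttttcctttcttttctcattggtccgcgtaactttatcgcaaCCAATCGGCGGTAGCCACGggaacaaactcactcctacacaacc
The element was found in 37 of 32851 windows (0.113%), in 20 of 14581 tested genes (0.137%), in 4 of 84 genes that rose at least 2-fold (4.76%), and in 0 of 55 that fell at least 2-fold. The fourth rising gene was Acacb. Of 23 members of the ER list with a promoter in the table, 9 held the element, 3 of them among 5 members that passed. Pdia6 (0.46, with 1 of 3 dimmer probes up by 0.86), Dnajc3 (0.32), Derl3 (0.08), and Canx (-0.05) held it and did not pass, as did Hsp90b1 and Calr. The metal response element, TGCACNC or TGCGCNC, was also searched. It matched 31% of genes that rose at least 2-fold and 34.5% of those that fell, beside 29.7% of tested genes. All 3 called members of the metallothionein list held it.

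Related stress programs moved less. Of 33 genes of the integrated stress response, Atf5 (log2 difference 1.08, adjusted p = 0.000616) and Atf4 (0.40, adjusted p = 0.0395) rose, Cth, which makes cysteine from cystathionine, fell (-1.01), and Ddit3 (CHOP) had a difference of 0.24 (adjusted p = 0.435). Of 24 cytosolic heat shock genes, Bag3 rose (0.57), and of 22 p53 and growth arrest genes, Gadd45b rose (0.76), with list medians of 0.09 and -0.01. Over all genes 2.09% rose, so 1 rise in lists of this size is near the share of all genes. The integrated stress response list had 1 rise instead of 2 when any single chow or 1B mouse but chow mouse 2 was left out, and 0 falls when any but chow mouse 4 or 1B mouse 4 was. The p53 list had 0 rises without chow mouse 1, 3, or 4 or 1B mouse 3 or 4.

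PPAR-alpha targets held the most falls of any list. Of 31 tested, 14 fell (8 at least 2-fold), 0 rose, and 28 had a negative difference, with a median of -0.61. Cyp4a10, a fatty acid omega-hydroxylase, was 0.34, 0.4, 1.3, and 1.17 in chow and -1.56, -1.83, -1.73, and -1.52 in 1B. The groups were far apart, the fall was 5.51-fold (log2 difference -2.46, SE 0.25, adjusted p = 4.43e-05), and all 4 probes passed. Its neighbor in function Cyp4a14 was -1.96, -1.98, 0.52, and 0.32 in chow and -2.42, -3.99, -4.24, and -3.2 in 1B. Chow mice 1 and 2 were close to 1B mouse 1 and over 2 log2 units below chow mice 3 and 4, so the pooled fall of 6.44-fold (log2 difference -2.69, SE 0.54, adjusted p = 0.00794) was an average of unlike controls. Acot1, an acyl-CoA thioesterase, had the same split, with -0.78, -0.23, 1.67, and 1.59 in chow and -1.05 to -1.41 in 1B (log2 difference -1.81, SE 0.43, adjusted p = 0.0213). Cyp4a31 did not have it (0.52, 0.85, 0.99, and 0.81 in chow and -0.69, -1.11, -1.27, and -0.89 in 1B) and fell 3.44-fold (adjusted p = 1.12e-05).

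Further PPAR-alpha targets that fell were Vnn1 (-1.25), the aldehyde dehydrogenase Aldh3a2 (-1.20), Ppara itself (-1.06), Ehhadh of peroxisomal oxidation (-1), Cpt1a, which admits long-chain fatty acids into mitochondria (-0.89), Decr1 (-0.68), Acadl (-0.58), Cpt2 (-0.53), Slc25a20 (-0.50), and Eci1 (-0.49). The list mean was -0.41, -0.46, 0.5, and 0.35 in chow mice 1 to 4 and -0.74, -0.81, -0.72, and -0.61 in 1B mice 1 to 4. The 1B mice were alike and the chow mice were not, and within slides 1, 2, and 3 the difference was -0.33, -0.35, and -1.22. Chow mice 1 and 2 lay on slides 1 and 2, and whether slide, feeding, or another property set them apart was not tested. Without chow mouse 3, 6 of these genes fell (Cyp4a10, Cyp4a14, Cyp4a31, Aldh3a2, Ehhadh, and Cpt1a), without chow mouse 4 also 6, without 1B mouse 1 or 2, 7, without 1B mouse 3, 8, and without other single chow or 1B mice up to 16. With the ribosomal RNA covariate, 9 fell.

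**Figure D4:**
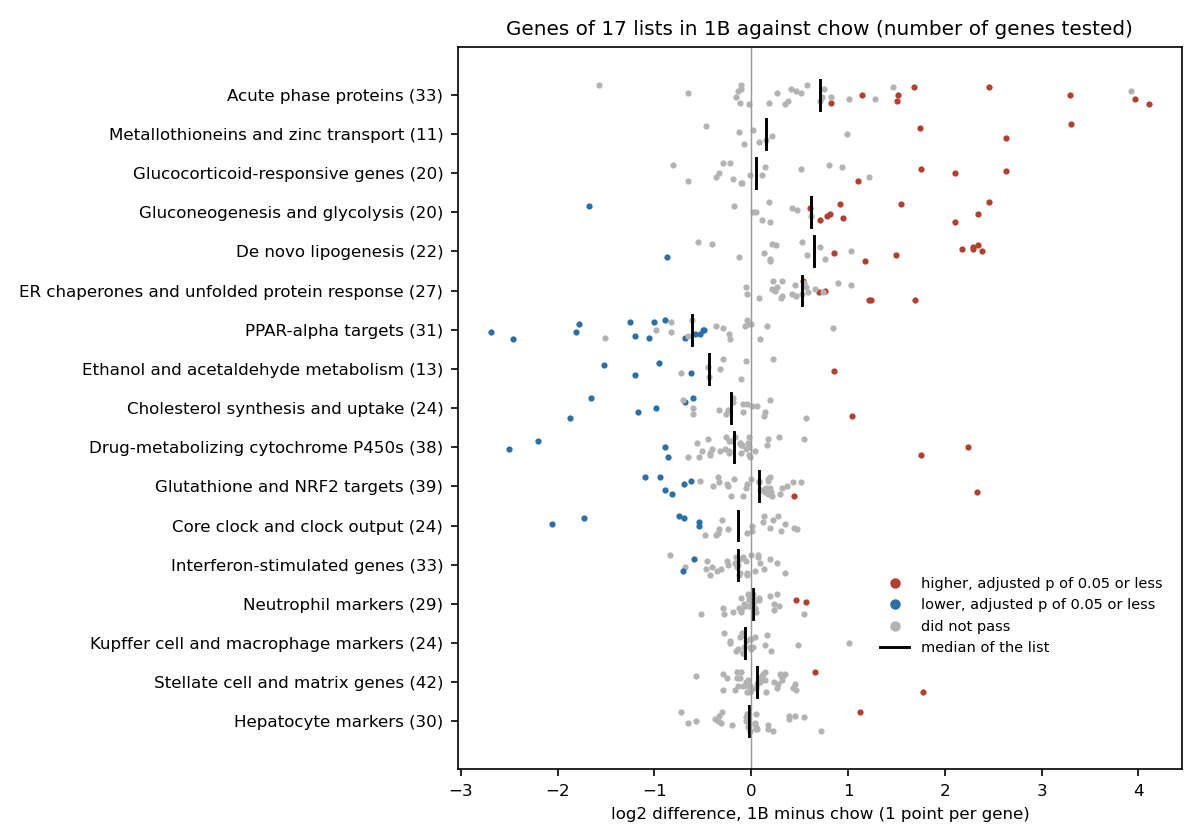
Log2 difference of 1B minus chow for the genes of 17 lists, 1 point per gene, with the median of each list as a black bar; colored points passed an adjusted p of 0.05. Acute phase, carbohydrate, lipogenic, and ER lists have medians of 0.71, 0.62, 0.65, and 0.53, the PPAR-alpha targets -0.61, and neutrophil, Kupffer cell, stellate cell, and hepatocyte lists lie within 0.06 of 0.

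The enzymes that handle ethanol itself mostly had negative differences (11 of 13), and 4 fell while 1 rose. Adh4, the class II alcohol dehydrogenase, was 0.83, 0.8, 1.11, and 1.15 in chow and -0.69, -0.57, -0.34, and -0.59 in 1B. This was among the most regular changes measured, a fall of 2.87-fold (log2 difference -1.52, SE 0.12, adjusted p = 1.99e-06). Aldh1a1, a cytosolic aldehyde dehydrogenase, fell 1.93-fold (adjusted p = 0.000138), Adh1, the main alcohol dehydrogenase of hepatocytes, had a difference of -0.62 (adjusted p = 0.00563), and Aldh3a2 fell 2.29-fold. Adh7, the class IV enzyme, went the other way, from -0.54 to -0.39 in chow to 0.03 to 0.8 in 1B (log2 difference 0.86, SE 0.12, adjusted p = 0.000411). Cyp2e1 had a difference of -0.73 (adjusted p = 0.144), and Aldh2, the mitochondrial aldehyde dehydrogenase, of -0.05 (adjusted p = 0.967), and neither passed.

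Genes of cholesterol synthesis and uptake fell in part: 6 of 24 fell, 1 rose, and the median was -0.21. Msmo1, a sterol monooxygenase of the pathway, was 1.05, 0.57, 0.85, and 0.08 in chow and -1.33, -1.21, -1.28, and -1.1 in 1B, a fall of 3.66-fold (log2 difference -1.87, SE 0.21, adjusted p = 7.22e-05). Insig1, which holds SREBP in the ER, fell 3.14-fold (adjusted p = 0.0183), and Fdft1 (-0.68) and Acat2 (-0.60) fell by less than 2-fold. Fdps rose (1.04) on 1 of 2 probes, the dimmer probe having a difference of 0.09. Sqle had a difference of 0.06. Abcg5 (-1.22) and Abcg8 (-1.94), which form the transporter of sterols into bile, fell together, whereas Mttp (0.95), which loads lipid onto apolipoprotein B, Abca1 (0.91), and the apolipoprotein gene Apoa4 (2.26) rose. Apoa4 was -4.67, -4.21, -4, and -4.22 in chow and -1.98, -2.3, -2.06, and -1.7 in 1B, without overlap (adjusted p = 0.00442). Among 24 bile acid genes, 4 fell, among them Nr0b2 (SHP, -1.44) and the canalicular exporter Abcc2 (-0.99), and Slc10a1, the uptake transporter of bile acids, rose (0.95), while Cyp7a1, the rate-limiting enzyme of bile acid synthesis, had a difference of 0.16 (adjusted p = 0.898).

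Drug-metabolizing cytochrome P450s went in both directions. Of 38 tested, 2 rose and 4 fell, 31 had a negative difference, and the median was -0.18. Cyp2b13 (log2 difference 2.24, with a dimmer probe at -0.29) and Cyp2b10 (1.75, on both probes) rose. Nr1i3, the gene of the receptor CAR that controls Cyp2b10, fell (-0.86), as did Cyp3a25 (-0.89). Cyp2a5, the mouse coumarin hydroxylase, was 1.62, 0.87, 1.49, and 1.26 in chow and -1.07, -1, -0.78, and -0.7 in 1B, a fall of 4.58-fold (SE of the log2 difference 0.32, adjusted p = 0.000673), and Cyp2a4 had a like fall (log2 difference -2.50, adjusted p = 0.000402). The values of these 2 genes cannot be taken as separate. The Cyp2a5 probe and one Cyp2a4 probe overlap over 38 bases of the transcript, of which 35 are the same, and are shown over 30 of them with the differing bases in capitals:
Cyp2a5: aggacacAGAgtagacttgcagaggatatt
Cyp2a4: aggacacTTCgtagacttgcagaggatatt
Those probes had log2 differences of -2.20 and -2.13. Alas1, the rate-limiting enzyme of heme synthesis, which supplies P450s, was 0.9, 0.83, 0.55, and 1.06 in chow and -1.39, -1.44, -0.81, and -0.58 in 1B (log2 difference -1.89, SE 0.25, adjusted p = 0.000199). Of 39 glutathione and NRF2 genes, 6 fell, all but Ugdh enzymes of glutathione use or synthesis (Gstt2 at -1.1, Gsta2 at -0.94, Gsta3 at -0.89, Gclc at -0.82, and Gsta1 at -0.69), 2 rose (Pgd and Fth1), and the median was 0.08. Hmox1 had a difference of 0.51 (adjusted p = 0.212) and Nqo1 of -0.39 (adjusted p = 0.291).

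Some clock output genes fell: 6 of 24 clock genes fell and 0 rose, beside 2.05% and 2.09% of all genes. Among the 24 differences, 11 were positive and 13 negative, with a median of -0.14. Dbp, a clock-driven transcription factor, was 0.78, -0.63, 1.66, and 1.08 in chow and -0.77, -1.37, -0.71, and -1.2 in 1B (log2 difference -1.73, SE 0.35, adjusted p = 0.00717), with chow mouse 2 apart from the other controls. Upp2, a uridine phosphorylase, fell 4.18-fold (adjusted p = 0.0221), and Usp2 (-0.75, with a dimmer probe at -2.13), Tef (-0.69), Nr1d2 (-0.54), and Cys1 (-0.54) fell by less. The core genes Arntl (0.13), Nr1d1 (-0.24), and Per1 (-0.36) did not pass. The count was 2 without chow mouse 3 (Dbp and Usp2) or 1B mouse 1, 3 without chow mouse 1 or chow mouse 4, and 1 without both chow mouse 1 and 1B mouse 4 (Usp2). Of 36 genes of the growth hormone axis, 4 fell: Hsd3b5, a steroid dehydrogenase of male liver (-1.59), Keg1 (-1.51), Igfals (-0.64), and the receptor gene Ghr (-0.52). Cyp2b13, known from female liver, was the 1 that rose. Of the 4 falls, 0 passed without chow mouse 4, 1B mouse 1, or 1B mouse 2 or with the ribosomal RNA covariate, and 1 gene of the list fell without chow mouse 2, chow mouse 3 (Keg1), or 1B mouse 4.

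Some of the largest and most regular changes lay outside these groups. Frmd8, which binds the iRhom proteins that escort the protease ADAM17, was -2.51, -1.96, -2.2, and -2.38 in chow and -0.1, 0.19, 0.23, and 1.21 in 1B, a rise of 6.26-fold on 2 of 2 probes (log2 difference 2.65, SE 0.26, adjusted p = 1.99e-05). Its lowest and highest differences over all alternative settings were 2.29 and 2.93. 8430408G22Rik, named Depp1 by RefSeq, was 0.35, 0.06, 0.74, and 0.1 in chow and -2.73, -2.29, -2.67, and -2.2 in 1B, and had the largest fall, 6.89-fold (SE of the log2 difference 0.27, adjusted p = 1.44e-05). Serpina6, the corticosteroid-binding globulin of plasma, fell 4.8-fold (from 0.54 to 0.93 in chow to -1.88 to -1.03 in 1B, adjusted p = 0.000185). Ppm1k, the phosphatase that activates branched-chain amino acid breakdown, fell 4.01-fold (adjusted p = 0.000805, on both probes). Of 36 genes of amino acid and one-carbon metabolism, 6 rose, including Got1 (1.22), Bhmt (1.00), and Mat1a (0.93), and 2 fell, Cth and Ahcy (-0.68). Without 1B mouse 4, 3 rose, and the 2 falls became 1 without chow mouse 4 or 1B mouse 3 and 0 without any other single chow or 1B mouse.

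Markers of liver cell types differed little between the groups. Of 30 hepatocyte markers, 1 rose (Ahsg, 1.12) and 0 fell, and albumin (Alb, 0.17, adjusted p = 0.753), Ttr (-0.05), and Cps1 (0.39) did not pass, with list means of -0.11 to 0.13 in chow and -0.03 to 0.05 in 1B. Among 29 neutrophil markers, Hdc (0.57) and S100a8 (0.46, adjusted p = 0.0221) rose and 0 fell, with list means of -0.1 to 0.13 in chow and -0.05 to 0.12 in 1B. Neither passed without chow mouse 3, chow mouse 4, 1B mouse 1, or 1B mouse 4 or with the ribosomal RNA covariate, and 1 marker did without chow mouse 2 or 1B mouse 2. S100a8, a subunit of calprotectin, exceeded background clearly on 4 of 4 1B arrays and 0 of 4 chow arrays. Its partner S100a9 (0.55, adjusted p = 0.213), Mpo (-0.11, adjusted p = 0.834), Elane (-0.07, adjusted p = 0.917), and Cxcr2 (0.08, adjusted p = 0.948) did not pass. Ly6g, the RNA by which the study followed neutrophils in liver, had no probe on the array. Of 31 chemokine genes, Ccl6 (1.01) and Csf1 (0.62) rose and Cxcl12 (-1.18, 1 of 2 probes) fell. The 2 rises became 0 without chow mouse 3, chow mouse 4, or 1B mouse 4 and with the ribosomal RNA covariate, and 1 without chow mouse 1 or 1B mouse 1, 2, or 3. Cxcl1 was -1.01, -1.58, -1.79, and -1.64 in chow and -0.29, 0.12, -1.04, and -1.02 in 1B. The 2 lowest 1B mice lay level with chow mouse 1, and the difference of 0.95 (SE 0.41, adjusted p = 0.296) did not pass.

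Of 24 Kupffer cell and macrophage markers, 0 passed (Clec4f at -0.08, Adgre1 at -0.28, Vsig4 at 0.02), and 0 passed in the T cell and NK cell, B cell, cholangiocyte, pancreatic acinar, and adipocyte lists by limma or by the methods' t-test after Benjamini-Hochberg adjustment. At an unadjusted limma p of 0.05, 1 Kupffer cell marker (Cd9), 1 cholangiocyte marker (Krt23), and 2 adipocyte markers (Cidec and Fabp4) passed, and 0 in the lymphocyte and acinar lists. By the methods' t-test, unadjusted, Ccl5 and Cd3d were higher and Cd8a lower in the T cell and NK cell list. Cd9, Sox9, and the acinar marker Cela1 were higher, and 0 B cell and adipocyte markers passed. These counts use the brightest probe: the cholangiocyte marker Sox9 had a difference of 0.31 on it, while its 2 dimmer probes rose by 0.71 and 1.14. Ifit3 (-0.70) and Isg15 (-0.59) fell among 33 interferon-stimulated genes, and 1 gene of the list did without chow mouse 1, chow mouse 4, 1B mouse 1, or 1B mouse 3. In 42 stellate cell and matrix genes, Tgfbr2, the type II receptor of transforming growth factor beta, was -1.55, -1.49, -1.41, and -1.55 in chow and 0, 0.37, 0.25, and 0.46 in 1B. The gap was many times the spread, a rise of 3.41-fold on 2 of 3 probes (log2 difference 1.77, SE 0.15, adjusted p = 5.86e-06). Acta2, alpha-smooth muscle actin, rose 1.58-fold (adjusted p = 0.0383) on its brightest probe, and its 3 dimmer probes had differences of -0.23, 0.04, and 0.08. Col1a1 (-0.05, adjusted p = 0.983), Col1a2 (-0.57), Col3a1 (0.00), and Tgfb1 (-0.03) did not pass. Of 22 markers of sinusoidal endothelium, 1 rose and 1 fell in this whole liver RNA. Lyve1, a hyaluronan receptor, was -2.66, -2.73, -2.83, and -2.72 in chow and -0.95, -0.4, -1.23, and -0.54 in 1B, a rise of 3.88-fold on both probes (log2 difference 1.96, SE 0.15, adjusted p = 1.99e-06). Dnase1l3 of the same list fell (-0.81), Stab2 (-0.02) and Pecam1 (-0.03) did not pass, and the list mean was -0.1 to 0.14 in chow and 0.03 to 0.08 in 1B. Of 21 tested genes that other assays of the work measured or targeted, 1 passed (Acta2).

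The same gavage was given to mice on HFD, and the effect there, HFD+1B minus HFD, shares no array with 1B minus chow. Of the 110 genes that rose at least 2-fold on chow, 92 had a positive difference on HFD and 58 of these passed, where 2124 of all genes (11%) were higher in HFD+1B, and 4 passed in the other direction. Of the 75 that fell, 66 had a negative difference and 43 passed, where 1626 of all genes (8.4%) were lower, and 3 passed in the other direction. The median log2 difference was 1.31 on chow and 0.71 on HFD for the rises, and -1.25 and -0.66 for the falls. Since these genes were chosen for a large effect on chow, their effect on HFD leans toward a smaller value. Adh4 fell alike on both diets (-1.52 and -1.59), and Lyve1 (1.96 and 1.82), Lcn2 (3.29 and 3.15), Fkbp5 (1.1 and 1.22), and Mt1 (3.30 and 3.99) had differences of effect that did not pass.

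The difference of the effects between diets passed for 57 of the 185 genes, beside 4.38% of all genes. Of the rises, 35 were smaller or opposite on HFD and 3 larger, and of the falls, 19 were smaller or opposite and 0 larger. The effect on chow that chose the 185 genes also enters this difference. Both the share of 57 and the lean toward smaller effects on HFD are thus partly set by that choice. Insig1 fell on chow (-1.65) and rose on HFD (1.73), with a difference of 3.38 (SE 0.52, adjusted p = 0.00296). Slc25a25, a mitochondrial carrier, did the same (-1.03 and 1.12). Neat1, a nuclear noncoding RNA, rose on chow (1.61) and fell on HFD (-1.40, difference -3.02, adjusted p = 0.00192), and Inhba, the activin A subunit, had the same pattern (1.55 and -0.70, difference -2.25, adjusted p = 0.00152). Elovl6 (2.38 and 0.26), Pklr (2.34 and 0.49), Apoa4 (2.26 and -0.05), and the ER genes Creld2 (1.69 and -0.42) and Syvn1 (1.24 and 0.06) rose on chow and had no effect past the threshold on HFD, and the difference of effects passed for each. Ppm1k (-2 and 0.39), Serpina6 (-2.26 and -0.56), and Cyp2a5 (-2.20 and -0.51) were the corresponding falls. Got1 had a larger rise on HFD (2.88) than on chow (1.22). The ribosomal RNA probes had mean log2 ratios of -3.81 to -2.15 in HFD mice and -1.03 to 1.12 in HFD+1B mice, a larger and opposite gap to that on chow. With this signal as a covariate 0 of the 57 differences passed by limma (13 at an unadjusted p under 0.05). Since neither the HFD and HFD+1B mice nor the chow and 1B mice overlapped in it, the signal and the group cannot be told apart on either diet. The median raw Cy5 signal was 63 to 98 intensity units in HFD mice and 90 to 158 in HFD+1B mice. Its part in the differences between diets was not tested.

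**Figure D5:**
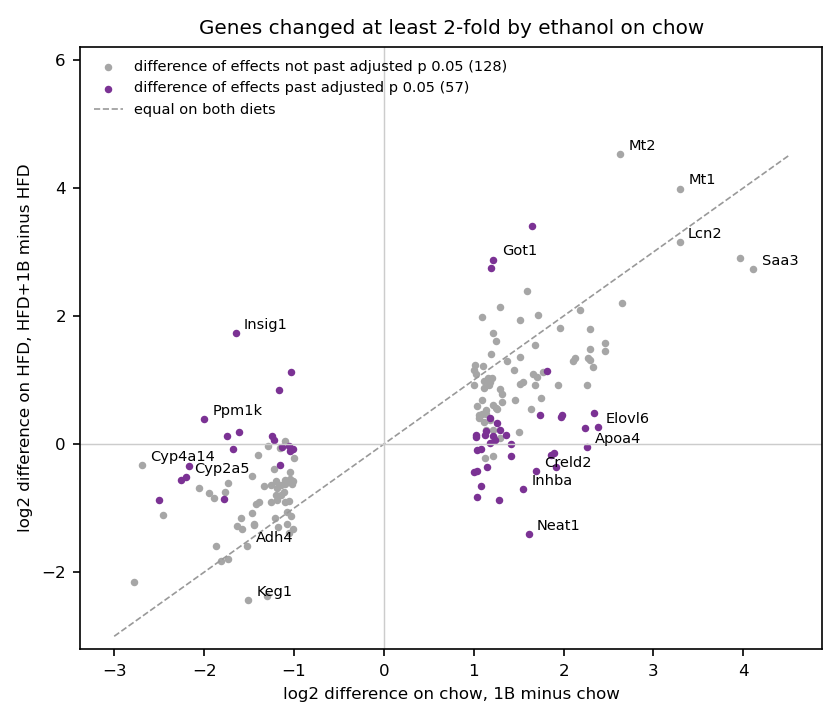
Log2 difference by ethanol on chow (x axis) and on HFD (y axis) for the 185 genes changed at least 2-fold on chow, 1 point per gene; purple points are the 57 genes with a difference of effects at an adjusted p of 0.05 or less, and the dashed line marks equal effects. The rises have a median of 1.31 on chow and 0.71 on HFD and the falls of -1.25 and -0.66, with Insig1 and Ppm1k above 0 at left, Neat1 and Inhba below 0 at right, and Mt2 and Got1 above the line.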

How the data were processed

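The study measured livers of 17 mice on 2-color Agilent 44K arrays, with liver in Cy5 and a common reference RNA in Cy3 on every array, without a dye swap. Scanner values were read by the authors in Feature Extraction 11.5.1.1, and each deposited scanner file holds raw median intensity and local background of 45018 spots. The authors also deposited the log2 ratio of liver to reference after background subtraction and dye normalization, for 41146 probes here, used as an alternative. The study's methods name GeneSpring GX and give no normalization settings. For data in general they name an unpaired t-test for 2 groups and analysis of variance for more, with no test given for the arrays. What is called the methods' t-test is that test for 2 groups, applied here to the arrays.

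Signals of 43379 non-control spots were corrected with normexp (offset 50), outlier spots left out, and log2 ratios normalized by loess within arrays (R 4.3.3, limma 3.58.1, and data.table of version 1.17.8). Tested probes had Cy5 well above background on 4 or more of the 17 arrays and a value in each group. A limma model (lmFit and eBayes) with 1 mean per group was fitted to the 17 arrays (13 residual degrees of freedom), and p values were adjusted by Benjamini-Hochberg over 34650 probes and called at 0.05. Each gene is given by its brightest probe, and 3969 tested probes without a symbol stay out of gene counts. By this rule 13 list members count as not passed although another of their probes passed. Where a group had no array well above background, a bound was taken from Cy5 signals after Aquantile. Array number per group limits the precision. Ribosomal RNA probes are those named Rn18s, Rn28s, or the like.

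The genes named are the 12 largest rises and 12 largest falls at least 2-fold with full values, up to 4 called members of each list, genes above background in only 1 group, the 5 largest differences between diets in each direction, the study's own genes, and defining markers, and others are given where a list is described. Members and lists were chosen with earlier results of these data known. Some genes that the rule names are not reported here. Scripts were tested on simulated data. Promoters come from RefSeq (GRCm38.p6), and no coordinates of the older array build were used.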

Additional observations from a re-analysis of the deposited data

Results flagged for a closer look

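Among 308 groups of 4 mice examined, 1 mouse stood far from the other three in 9, where chance gives about 15.4 (1 in 20), so their number is not a result. The value given is the gap to the nearest mouse as a share of the range of the group, against the 95% critical value of Dixon's test for 4 values. In 1B mouse 4 this held for Fdps (0.876) and Sdsl (0.833) and for the means of the glucocorticoid-responsive genes (0.848) and the immediate early genes (0.889), each the highest of the 1B mice. In 1B mouse 2 it held for Icam1 (0.948) and the chemokine list (0.909), also the highest. In chow, mouse 4 was high in Hsd3b5 (0.834, at 2.09 against 1.31 to 1.44) and low in the mean of the stellate cell and matrix genes (0.867), and mouse 3 was low in Clec2d (0.921).

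The effect of ethanol differed between diets, by the test of the difference in limma, for 32 of the genes named. With the ribosomal RNA covariate this difference passed for 0 of all probes, and signal and group cannot be told apart. Genes named for a large effect on chow lean toward a smaller one on HFD. The value is the effect on HFD minus that on chow in log2. Opposite effects were measured for Insig1 (3.38), Slc25a25 (2.16), Inhba (-2.25), Neat1 (-3.02), Bhmt (-1.44), Slc10a1 (-1.52), and Fdps (-1.85), each past the threshold on both diets. Falls on chow that were smaller on HFD or opposite below the threshold there were those of Ppm1k (2.39), Clec2d (1.86), Serpina6 (1.71), Cyp2a5 (1.69), Cyp2a4 (1.62), Pim3 (1.48), Abcg5 (1.29), Cyp4a31 (0.94), Abcc2 (0.89), and Gabarapl1 (0.67). Rises on chow that were smaller or opposite below the threshold on HFD were those of Apoa4 (-2.32), 2010003K11Rik (-2.28), Eif4ebp3 (-2.15), Elovl6 (-2.12), Creld2 (-2.11), Cyp2b13 (-1.99), Pklr (-1.86), Slc30a10 (-1.29), Syvn1 (-1.18), Atf5 (-1.17), Csf1 (-1.05), and Adh7 (-0.94). Got1 (1.66) and Hdc (0.76) rose more on HFD. Il17f (0.97) had an effect of -0.37 on chow (adjusted p = 0.324) and 0.61 on HFD (adjusted p = 0.0124).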

How the results depend on the processing

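Counts are of probes, higher and lower, in 1B against chow. At an adjusted p of 0.05 the 638 and 618 became 409 higher with the authors' table, 346 higher with median centring, 159 and 141 with Cy5 alone, 351 higher without both chow mouse 1 and 1B mouse 4, and 368 lower with the ribosomal RNA covariate. At least 2-fold, the 171 and 100 became 194 lower with the authors' table, 107 and 66 with Cy5 alone, and 442 and 391 at 1.5-fold. The methods' t-test gave 268 and 229 (85 and 60 at least 2-fold) after Benjamini-Hochberg adjustment and 2633 and 2447 at an unadjusted p of 0.05. The 57 genes with a difference between diets became 13 with Cy5 alone, 35 without both mice, and 0 with the covariate. Leaving out both mice and the covariate were settings added after the data were seen, as were the positions of the mice under other normalizations, where the lowest 1B mouse was at 0.7 with median centring. With 1 of the 17 mice left out, counts ran from 404 (without chow mouse 3) to 780 (without HFD mouse 3) higher, 317 (without chow mouse 3) to 702 (without HFD mouse 3) lower, 135 (without 1B mouse 4) to 177 and 77 (without 1B mouse 1) to 108 at least 2-fold, and 30 (without chow mouse 4) to 63 for the difference between diets. Same-numbered mice had correlations of 0.33, 0.26, 0.21, and 0.07 between their deviations from the group means, and mice 3 and 4 matched each other's number best, so the numbers were not taken as pairs. A replicate block gave 754 and 794 probes, 167 and 102 at least 2-fold, and 66 genes. A slide block gave 728 and 710, 184 and 111, and 69.

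Over 26 settings of the named genes, a call or its absence was kept 2888 times and a call lost 440 times, and the direction of a called gene reversed 0 times. In settings that left out an HFD or HFD+1B mouse or fitted the 8 arrays alone, the log2 difference could not change. Their directions were fixed, and these settings add to the number kept. Of 108 called genes, 53 were called with Cy5 alone, 71 without both mice, 72 with the covariate, and 72 to 93 with 1 chow or 1B mouse left out. With 1 HFD or HFD+1B mouse left out, 99 to 108 were called. Calls were lost in many of 26 settings for Saa1 (18), Fga (15), G6pc (13), Acta2 (13), Saa3 (11), Fgg (11), Hspa5 (9), Upp2 (9), Lcn2 (7), Mt2 (6), Plin5 (18), Hdc (16), Csf1 (16), Hsd3b5 (13), Igfals (12), Abhd5 (10), Otud1 (10), S100a8 (9), Keg1 (8), and Ccl6 (7), and in 0 for Mt1, Frmd8, Fasn, Pklr, Acly, Elovl6, Cyp4a10, Cyp4a14, Adh4, Lyve1, and Tgfbr2. Calls were also lost for Nfkb1 (17), Cth (15), Gadd45b (15), Atf4 (13), Pim3 (9), and Maff (9). Among genes with opposite effects between diets, calls on chow were lost for Fdps (8), Insig1 (6), and Slc25a25 (6). The same held for Eif4ebp3 (9), Dnajb11 (8), Ctsl (8), Isg15 (7), Acot1 (6), Got1 (6), Gsta2 (6), and Cyr61 (6), and in fewer settings for others. These settings leave out the methods' t-test with Benjamini-Hochberg adjustment, by which 0 acute phase genes, Slc30a10 alone of the metallothionein list (not Mt1), 1 ER gene (Derl1), and 3 PPAR-alpha targets (Cpt1a, Cyp4a10, and Cyp4a31, not Cyp4a14) passed. By that test Fkbp5 alone passed of the glucocorticoid list, and 0 immediate early genes did. Among P450 genes 0 rose and 2 fell, and 0 passed in the neutrophil, chemokine, heat shock, and p53 lists. Rises remained for 6 lipogenic genes and 6 of the carbohydrate list. The cause was not tested. Ratios of dim probes are compressed toward 0, and 4 mice a group limit the precision.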

Other observations

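Among 39 autophagy and lysosome genes, Ulk1, the kinase that starts autophagy, rose 2.29-fold on both probes (log2 difference 1.19, SE 0.13, adjusted p = 4.95e-05), from -0.98 to -0.74 in chow to 0.12 to 0.55 in 1B. Ctsl, a lysosomal protease, rose (0.74), while Gabarapl1, of the autophagosome membrane, fell (-0.95, adjusted p = 0.000261), and the list median was 0.01. The list held 4 rises, and 2 without chow mouse 3 or 4 or 1B mouse 1, 2, or 4. Of 34 cell cycle genes, Tk1, thymidine kinase, was 1.27, 1.3, 1.24, and 1.07 in chow and -0.72, -0.66, -0.46, and -0.35 in 1B, a fall of 3.41-fold (adjusted p = 8.71e-05), and Rrm2, a subunit of ribonucleotide reductase, rose 2.21-fold (adjusted p = 0.0113), with a list median of -0.01. That count, 1 gene in each direction, is near the 2.09% higher and 2.05% lower of all genes. Of 45 complement and coagulation genes, Thbd, thrombomodulin, rose 2.45-fold (adjusted p = 0.00953) beside Fga and Fgg, and Mbl2 (-0.87) and F13b (-0.48) fell. The 3 rises became 1 without chow mouse 2, 3, or 4 or 1B mouse 1 or 4. Among 20 lipid droplet genes, Plin5 (0.65) and Abhd5 (0.58) rose and 0 fell, and the 2 became 0 without chow mouse 1, chow mouse 3, chow mouse 4, 1B mouse 3, or 1B mouse 4 and 1 without 1B mouse 1. Otud1, a deubiquitinase, exceeded background clearly on 0 of 4 1B arrays and 4 of 4 chow arrays, and was at least 1.22-fold lower in 1B (adjusted p = 0.0303).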
